A study of Mus musculus with 18 samples.

Results

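Adult mouse tendon cells were given stimulated supernatant of neonatal or of adult origin, which the series' title ties to factors secreted by T cells, and their RNA was compared directly between the 2 supernatants. The comparison uses 6 of the 18 libraries of the series. Of these, 3 came from adult tendon cells with neonatal supernatant, and the other 3 from adult tendon cells with adult supernatant. A further 3 libraries, from adult tendon cells in T cell medium without supernatant, are shown beside them as media values. The remaining 9 libraries apply neonatal supernatant, adult supernatant or T cell medium to neonatal tendon cells. All cells were wild type fibroblasts from tendon, and every well received complete DMEM mixed in equal volume with T cell medium or supernatant. Per the labels' protocols, 4 adult tendons or 3 neonatal tendons were digested with collagenase and pooled per well, and the cells were passaged, frozen and thawed. About 25K thawed cells were then cultured for 3 days before treatment, so the values describe passaged monolayer cells and not tendon in place. The sources used here do not give the mouse strain, the age in days, the length of treatment, the number of separate supernatant preparations, or whether libraries came from separate cultures. All libraries carry 1 batch label. The p-values therefore measure only the spread between these libraries, which may be technical, and a difference between the supernatants may be a difference between single preparations.

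Activated T cells act on fibroblasts through secreted cytokines. Interferon-gamma binds its receptor, activates the kinases JAK1 and JAK2 and STAT transcription factors, which induce IRF1; STAT dimers bind GAS elements and IRF factors bind ISRE elements. Interleukin-17 acts with NF-kB and raises chemokines, lipocalin and acute-phase genes, while interleukin-4 and interleukin-13 signal through STAT6 and induce eotaxin and periostin in fibroblasts. Tendon fibroblasts are known for the transcription factors scleraxis and Mohawk and for a matrix of fibrillar collagen, collagen VI, COMP and small proteoglycans, and inflammatory cytokines are known to lower matrix genes in tendon cell culture.

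The deposited values are log2 CPM (counts scaled to a common library total) of 14391 genes. Depth, estimated on the assumption that the deposited offset stands for 2 reads, was 12.66 to 15.43 M reads in the 3 libraries with neonatal supernatant and 12.96 to 17.14 M reads in the 3 with adult supernatant, and 3 reads correspond to 0.169 to 0.237 CPM over the series. Correlations of log2 CPM across genes were 0.958 to 0.975 within the 2 groups and 0.918 to 0.951 between them. The first principal component of the 6 libraries held 50.2% of the variance and separated the groups. The next held 19.1% and set library 2 of adult supernatant apart from library 3 of the same group. Summed CPM of 64 odorant and vomeronasal receptor genes, which fibroblasts are not known for, were 186, 160 and 127 with neonatal supernatant, 364, 679 and 274 with adult supernatant, and 35.5 to 40.1 in media. T cell marker genes summed to 14.2, 13.1 and 9.1 CPM with neonatal supernatant and to 16.2, 33.0 and 12.7 CPM with adult supernatant, library 2 again being the highest. Their part in the results below was not tested.

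With neonatal supernatant, adult tendon cells had far lower levels of interferon-gamma-induced genes and higher levels of matrix, contractile, cholesterol-synthesis and cell-cycle genes than with adult supernatant. In limma with Benjamini-Hochberg adjustment over all genes, 4110 genes (28.6%) passed an adjusted p under 0.05. Of these, 2171 (15.1%) were higher and 1939 (13.5%) were lower with neonatal supernatant. At least a 2-fold difference was reached by 526 of the higher genes (3.66% of those tested) and 641 of the lower genes (4.45%), together 8.11%. The 3 libraries of one supernatant did not overlap those of the other in 5858 genes (40.7%). The median log2 fold change over all genes was -0.01. All fold changes below are neonatal over adult supernatant on the log2 scale, with the standard error (SE) from limma. Each SE is for 3 libraries per group, with the spread estimated over all 18 libraries of the series. Every list count is to be read against these shares. Rises and falls are between the 2 supernatants, so a gene that rose can still lie below media. Since CPM is not divided by gene length, levels are compared between libraries and not between genes. In such bulk RNA, fewer cells of a type and less RNA per cell cannot be told apart.

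**Figure D1:**
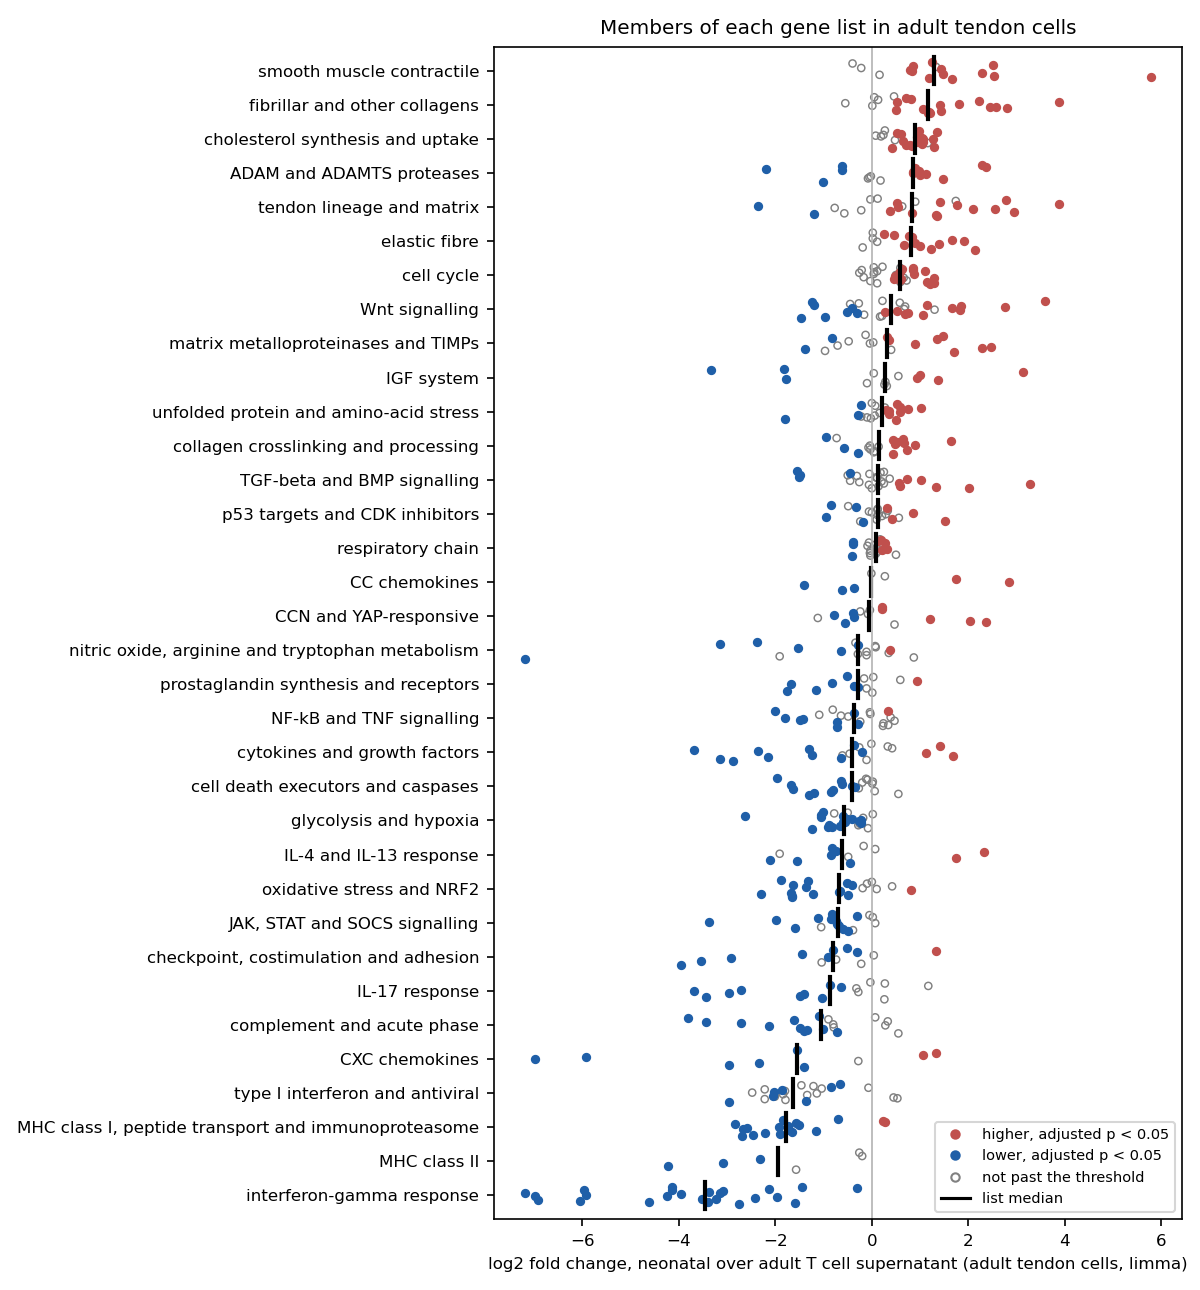
Each point is a measured member of a gene list, placed at its log2 fold change, neonatal over adult supernatant in adult tendon cells, and the black bar is the list median. Red and blue points passed the adjusted p threshold as higher and lower; the interferon-gamma list lies wholly to the left with a median of -3.46, and the contractile list has the highest median, 1.29.

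All 24 measured genes of the interferon-gamma response list were lower with neonatal supernatant, with a median of -3.46 against -0.01 for all genes. The list's mean level was 5.18, 5.0 and 3.76 log2 CPM in libraries 1, 2 and 3 with neonatal supernatant, against 8.51, 8.33 and 8.66 with adult supernatant and 2.08, 2.88 and 2.22 in media. The groups did not overlap, neonatal-supernatant library 3 was the lowest of its group, and all 3 neonatal-supernatant libraries were above media. Without that library the median was -3.10, the value nearest 0 of the 6 medians with 1 library left out, and over those 6 fits 21 to 24 members passed.

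At the receptor, Ifngr1, the ligand-binding chain, had 46.8, 45.4 and 43.4 CPM with neonatal supernatant and 40.6, 47.2 and 45.8 CPM with adult supernatant, and the groups overlapped (0.02 ± 0.09, adjusted p = 0.864 by limma). Ifngr2, the signalling chain, was slightly lower (-0.31 ± 0.10, adjusted p = 0.0206 by limma), a call lost without adult-supernatant library 3 (adjusted p = 0.101) or neonatal-supernatant library 1 (0.0842). Jak1, the kinase bound to the receptor, was lower at 631, 588 and 596 CPM with neonatal supernatant against 869, 819 and 869 CPM with adult supernatant (-0.50 ± 0.05, adjusted p = 1.35e-06 by limma). Of 18 measured genes for JAK kinases, STAT factors and their SOCS inhibitors, 13 were lower, none was higher and the median was -0.71. Socs1 and Socs3, feedback inhibitors of JAK kinases, fell by 3.38 ± 0.71 and 1.99 ± 0.19. Stat6, which carries the interleukin-4 signal, stood at 134, 150 and 137 CPM with neonatal supernatant and 139, 136 and 127 CPM with adult supernatant and did not pass (adjusted p = 0.408).

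Irf1, a transcription factor that interferon-gamma induces, had 118, 91.3 and 47.8 CPM with neonatal supernatant against 565, 496 and 572 CPM with adult supernatant and 21.7 to 23.9 CPM in media. Every neonatal-supernatant library thus lay between media and adult supernatant (-2.76 ± 0.21, adjusted p = 4.39e-08). Nos2, the inducible nitric oxide synthase, had 41.2, 25.6 and 11.2 CPM with neonatal supernatant, against 3558, 3153 and 3325 CPM with adult supernatant and 3.05 to 4.57 CPM in media. This fall of 7.19 ± 0.38 on the log2 scale was larger than in any other list member (adjusted p = 1.19e-09). The chemokines Cxcl9 and Cxcl10, which attract T cells through CXCR3, fell by 6.99 ± 0.46 and 5.93 ± 0.44. Cxcl9 had 2.60, 4.53 and 2.01 CPM with neonatal supernatant and 414, 267 and 499 CPM with adult supernatant. Cd274, which encodes the checkpoint ligand PD-L1, had 19.5, 14.3 and 7.67 CPM with neonatal supernatant and 211, 179 and 219 CPM with adult supernatant (-3.96 ± 0.28). Batf2, a transcription factor gene of activated macrophages, fell by 5.96 ± 0.53 (5.34 without neonatal-supernatant library 3, where it was lowest).

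The guanylate-binding proteins (Gbp) and immunity-related GTPases, which attack intracellular pathogens, made up much of the rest of the list. Gbp2 had 145, 106 and 38.6 CPM with neonatal supernatant, against 2133, 1759 and 2353 CPM with adult supernatant (-4.62 ± 0.41), and Gbp5 and Gbp6 fell by 6.04 ± 0.44 and 6.92 ± 0.59. Igtp had 121, 96.8 and 23.5 CPM with neonatal supernatant and 1265, 1096 and 1336 CPM with adult supernatant (-4.24 ± 0.59, and -3.50 without neonatal-supernatant library 3). Outside the list, Gbp4 had 2.37, 0 and 1.12 CPM with neonatal supernatant against 391, 350 and 414 CPM with adult supernatant. Among called, non-overlapping genes of at least 5 CPM, predicted and clone names left out, its fall was the largest (-9.03 ± 1.08). That size is set in part by the library at 0, and it was -7.77 without neonatal-supernatant library 2 and -9.92 without library 1. Gbp8 and Gbp11, likewise outside the list, fell by 5.45 ± 0.46 and 5.24 ± 0.42. Members of the Gbp family share near-identical stretches, so values of single members are uncertain where reads could be assigned to more than 1 copy.

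Promoters of the interferon-gamma list were searched for the GAS letters TTCNNNGAA and for the ISRE core, written as 2 copies of GAAA with any 2 bases between them, on both strands, in the 250 bases before the start in RefSeq's table for GRCm38.p6, another build than the authors' GRCm39. Of the 24 measured members 16 had an entry, and 7 of them (43.8%) held the GAS letters, against 7.18% of 27025 promoters. The ISRE core letters were in 10 of the 16 (62.5%), against 3.04% of 27025. Either was found in 12, both in 5, and no GAS match overlapped an ISRE match in this list. The 5 with both were Gbp5, Gbp7, Irgm2, Igtp and Tgtp1, of the Gbp and immunity-related GTPase families, so their promoters may not be independent. A match describes letters and is not a tested binding site. The windows of 60 bases below show how close to the start the letters lie in 5 genes that were lower with neonatal supernatant. Capitals mark the match nearest the start, and each window is written 5′ to 3′ on the transcribed gene's strand.
Irf1: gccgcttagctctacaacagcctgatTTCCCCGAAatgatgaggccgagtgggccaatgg
Gbp2: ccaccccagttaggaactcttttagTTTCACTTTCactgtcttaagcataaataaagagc
Igtp: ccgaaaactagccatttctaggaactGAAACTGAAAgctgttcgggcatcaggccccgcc
Cxcl10: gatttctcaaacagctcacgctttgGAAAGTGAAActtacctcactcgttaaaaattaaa
Socs1: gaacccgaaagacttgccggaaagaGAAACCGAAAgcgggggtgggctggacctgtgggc
The Irf1 window is chr11:53769898-53769957 on the plus strand, with the GAS letters 82 to 90 bases upstream of the start. The Gbp2 window is chr3:142620579-142620638 on the plus strand, where the ISRE letters lie on the opposite strand 50 to 59 bases upstream. The Igtp window is chr11:58199496-58199555 on the plus strand, with the ISRE letters 25 to 34 bases upstream. The Cxcl10 window is chr5:92349068-92349127 on the minus strand, with the letters 204 to 213 bases upstream. The Socs1 window is chr16:10785579-10785638 on the minus strand, with the letters 68 to 77 bases upstream. A further ISRE core match in the Socs1 window starts in the lower-case letters before the capitals and overlaps the marked match.

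Genes of MHC class I antigen display followed the same direction. Of 18 measured genes for class I chains, peptide transport and the immunoproteasome, 16 were lower and 2 were higher, with a median of -1.79. H2-K1, a class I heavy chain, had 622, 546 and 240 CPM with neonatal supernatant against 2986, 2614 and 2873 CPM with adult supernatant (-2.70 ± 0.25, adjusted p = 3.66e-07), and H2-D1 fell by 2.47 ± 0.21. H2-Q6, a class I gene with near-identical neighbours and so uncertain, fell by 4.79 ± 0.32. Tap1, a chain of the peptide transporter, and Psme1, a proteasome activator, fell by 2.21 ± 0.22 and 1.73 ± 0.15. The immunoproteasome subunit Psmb8 had 48.2, 39.6 and 12.3 CPM with neonatal supernatant and 185, 178 and 181 CPM with adult supernatant (-2.66 ± 0.44, and -2.05 without neonatal-supernatant library 3). Nlrc5, the transactivator of class I genes, had 14.2, 14.5 and 8.86 CPM with neonatal supernatant and 85.4, 86.2 and 93.0 CPM with adult supernatant (-2.84 ± 0.40). The 2 that were higher, Calr and Pdia3, are general chaperones of the endoplasmic reticulum, and rose by 0.24 ± 0.05 and 0.27 ± 0.05. Of 15 members of this list with a promoter entry, 2 (13.3%) held the ISRE core letters, B2m and H2-T23, against 3.04% of all promoters. Of 6 MHC class II genes 3 were lower, among them Cd74, the invariant chain, with 0.949, 0.695 and 0.397 CPM with neonatal supernatant against 13.2, 12.2 and 18.7 CPM with adult supernatant (-4.23 ± 0.43). The class II chains H2-Aa and H2-Ab1 fell by 3.08 ± 0.42 and 2.32 ± 0.28. Ciita, the class II transactivator, had 2.49, 1.86 and 1.75 CPM with neonatal supernatant and 5.88, 9.44 and 4.33 CPM with adult supernatant and did not pass (-1.57 ± 0.67, adjusted p = 0.0915), although its libraries did not overlap and it passed with a pseudocount of 1 CPM (adjusted p = 0.003).

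The type I interferon and antiviral list differed less clearly. Of 22 measured genes 7 were lower, none was higher and the median was -1.62. The list's mean level was 4.11, 4.62 and 2.68 log2 CPM with neonatal supernatant, against 5.21, 5.24 and 5.23 with adult supernatant, so the libraries with neonatal supernatant spread far more than those with adult supernatant. The number of lower members was 1 without neonatal-supernatant library 3, 11 without neonatal-supernatant library 2, and 3, 3 and 4 without adult-supernatant libraries 1, 2 and 3. It was 13 with a pseudocount of 1 CPM, 11 in the 6 compared libraries alone and 4 without trend. Ifit2, an antiviral protein gene, had 24.9, 33.3 and 14.5 CPM with neonatal supernatant and 57.3, 58.7 and 61.0 CPM with adult supernatant (-1.36 ± 0.31, adjusted p = 0.0029). Of 16 members with a promoter entry, 7 (43.8%) held the ISRE core letters. Either the ISRE or the GAS letters were in 10 and both in 2, Oas1a and Bst2, and in Bst2 the matches overlapped. GAS letters were thus not confined to the interferon-gamma list, and they were in 7.18% of all promoters.

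**Figure D2:**
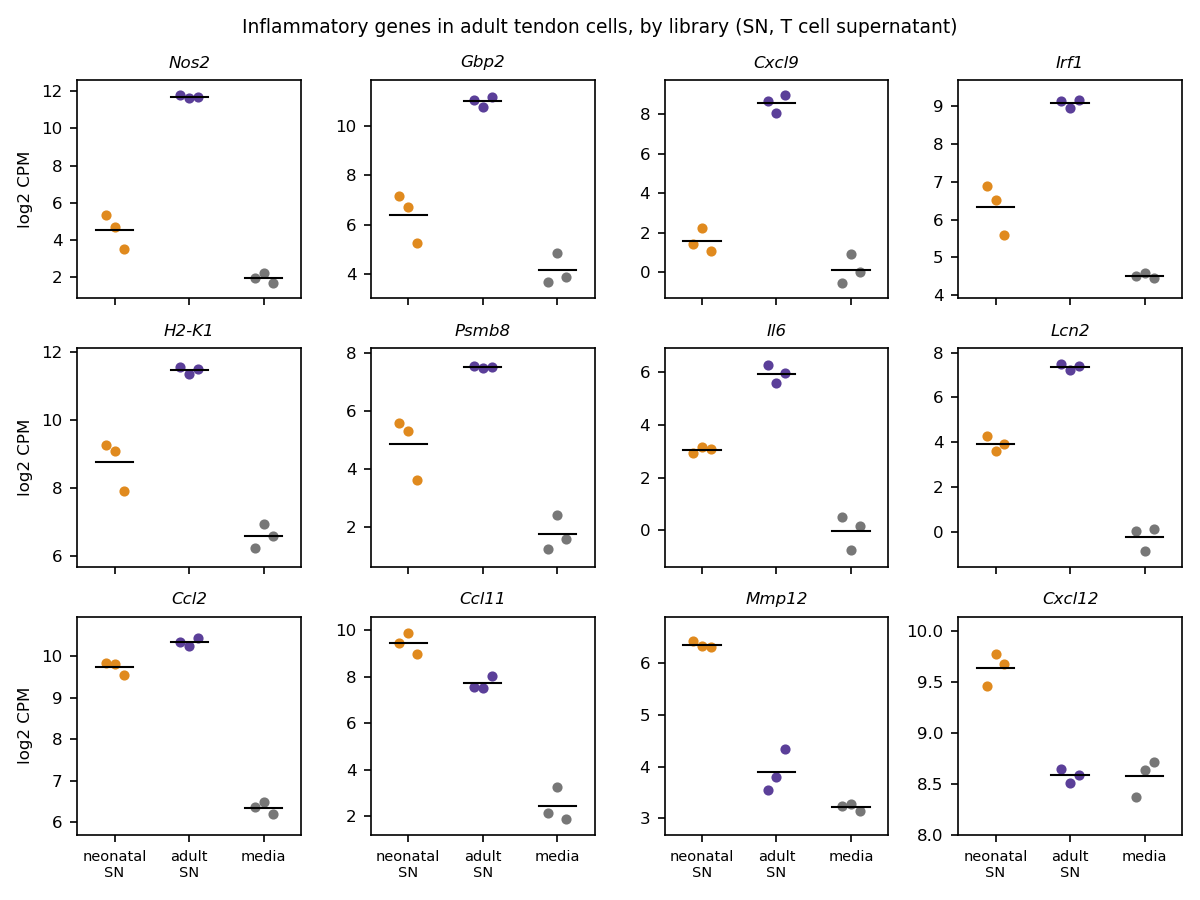
Each panel shows 1 gene in the 9 libraries of adult tendon cells, in log2 CPM, with neonatal supernatant at left, adult supernatant in the middle and media at right; the line is the group mean. Nos2, Gbp2, Cxcl9, Irf1, H2-K1, Psmb8, Il6 and Lcn2 are lower with neonatal than with adult supernatant, Ccl2 fell by 0.62 on the log2 scale, and Ccl11, Mmp12 and Cxcl12 are higher.

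Chemokines went in both directions. Of 9 CXC chemokines 6 were lower and 2 were higher (median -1.55). Beside Cxcl9 and Cxcl10, the neutrophil attractant Cxcl2 had 0.791, 1.12 and 0.798 CPM with neonatal supernatant and 7.70, 6.34 and 9.79 CPM with adult supernatant (-2.96 ± 0.44, adjusted p = 5.83e-05). Cxcl5, another neutrophil attractant, had 806, 713 and 670 CPM with neonatal supernatant and 856, 784 and 1021 CPM with adult supernatant, and its groups overlapped (-0.28 ± 0.28, adjusted p = 0.5). Cxcl12, the stromal ligand of CXCR4, had 704, 875 and 821 CPM with neonatal supernatant, 401, 365 and 385 CPM with adult supernatant and 330 to 419 CPM in media. It was higher with neonatal supernatant (1.06 ± 0.15, adjusted p = 3.01e-05), as was Cxcl14, a chemokine of resting tissue (1.33 ± 0.23, adjusted p = 0.000306).

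Of 7 CC chemokines 3 were lower and 2 were higher, with a median of -0.01 that turned to 0.01 after quantile normalization, to 0.07 without adult-supernatant library 3 and to 0.06 without neonatal-supernatant library 2. Ccl11, the eosinophil attractant eotaxin, had 703, 949 and 511 CPM with neonatal supernatant, 190, 183 and 263 CPM with adult supernatant and 3.57 to 9.30 CPM in media. It rose by 1.74 ± 0.31 (adjusted p = 0.000319), and Ccl9 rose by 2.84 ± 0.53 (adjusted p = 0.000601). The monocyte attractant Ccl2 had 909, 898 and 748 CPM with neonatal supernatant and 1302, 1213 and 1395 CPM with adult supernatant, against 73.3 to 89.6 CPM in media. Its fall of 0.62 ± 0.12 was small beside the level that either supernatant reached over media. Ccl8, another member of this class, had 720, 730 and 358 CPM with neonatal supernatant and 1524, 1364 and 1702 CPM with adult supernatant (-1.41 ± 0.21).

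Among 20 measured cytokine and growth factor genes, 10 were lower and 3 were higher (median -0.42). Kitl, the stem cell factor, fell by 1.31 ± 0.13. Il6 had 7.47, 8.84 and 8.43 CPM with neonatal supernatant and 76.3, 48.3 and 63.1 CPM with adult supernatant (-2.88 ± 0.51, adjusted p = 0.000323). Lif, a cytokine of the same receptor family, had 25.7, 23.2 and 19.1 CPM with neonatal supernatant and 225, 179 and 200 CPM with adult supernatant, against 11.1 to 18.4 CPM in media (-3.15 ± 0.23). Csf3, the granulocyte colony factor, was at or under 3 reads in all neonatal-supernatant libraries and averaged 2.01 CPM with adult supernatant, at least 9.48-fold lower with neonatal supernatant when each library's floor is 3 reads. Il1rn, the interleukin-1 receptor antagonist, was higher, at 11.9, 13.0 and 16.0 CPM with neonatal supernatant against 4.19, 3.80 and 4.30 CPM with adult supernatant (1.69 ± 0.20), and Fgf2, a growth factor of fibroblasts, rose by 1.41 ± 0.36.

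Of 15 genes of the interleukin-17 response 9 were lower, none was higher and the median was -0.86. Lcn2, an iron-binding protein of the acute phase, had 19.2, 12.1 and 15.2 CPM with neonatal supernatant, 179, 152 and 168 CPM with adult supernatant and 0.426 to 0.955 CPM in media (-3.43 ± 0.73, adjusted p = 0.00174). Saa3, serum amyloid A of fibroblasts and macrophages, had 186, 143 and 101 CPM with neonatal supernatant and 943, 956 and 842 CPM with adult supernatant (-2.72 ± 0.66). Nfkbiz, a nuclear cofactor of NF-kB, and Il17rc, a chain of the interleukin-17 receptor, fell by 1.49 ± 0.15 and 1.03 ± 0.12. Il17ra, the shared receptor chain, had 16.1, 12.7 and 16.9 CPM with neonatal supernatant and 11.3, 13.9 and 12.7 CPM with adult supernatant, which overlapped (adjusted p = 0.29). In the wider NF-kB and TNF list 8 of 21 were lower and 1 was higher (median -0.36). Ripk2, a kinase of innate sensors, had 62.0, 47.5 and 44.0 CPM with neonatal supernatant and 203, 188 and 218 CPM with adult supernatant (-2.00 ± 0.14). Tnfaip2 fell by 1.80 ± 0.11, and Nfkb1, an NF-kB subunit that NF-kB itself induces, fell by 0.72 ± 0.11.

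The list for interleukin-4 and interleukin-13 held members in both directions. Of 12 measured genes 6 were lower and 2 were higher (median -0.62). The higher ones were Ccl11, described above, and Postn, the matrix protein periostin, with 873, 1211 and 1445 CPM with neonatal supernatant and 245, 229 and 218 CPM with adult supernatant (2.32 ± 0.16, adjusted p = 1.26e-08). Postn stood at 1639 to 2066 CPM in media, above either supernatant. The receptor chains were lower. Il13ra1 had 75.3, 79.1 and 65.6 CPM with neonatal supernatant and 213, 200 and 231 CPM with adult supernatant (-1.55 ± 0.14). Il13ra2, the decoy receptor, had 51.2, 36.8 and 20.9 CPM with neonatal supernatant and 166, 117 and 168 CPM with adult supernatant, against 0.373 to 0.814 CPM in media (-2.12 ± 0.43). Il4ra had 397, 359 and 353 CPM with neonatal supernatant and 543, 496 and 481 CPM with adult supernatant, against 45.7 to 53.9 CPM in media (-0.45 ± 0.11, adjusted p = 0.00485). The STAT6 letters, searched in the 250 upstream bases, are the GAS letters with 1 further free base in the middle. They were in 0 of 8 members of this list with a promoter entry, against 5.86% of all promoters. The GAS letters were in 1 of the 8 (12.5%), Bcl6, against 7.18% of all promoters. With 8 promoters, a share near that of all promoters cannot be told from none.

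Of 18 complement and acute-phase genes 11 were lower, none was higher and the median was -1.05. Serping1, which inhibits the first complement complex, had 267, 297 and 229 CPM with neonatal supernatant and 1199, 1070 and 1181 CPM with adult supernatant (-2.13 ± 0.27), and C1s1, a protease of that complex, fell by 1.40 ± 0.17. Serpina3f, a serine protease inhibitor of a cluster of near-identical genes and so uncertain, fell by 3.81 ± 0.29. C3, the central complement protein, had 934, 1140 and 751 CPM with neonatal supernatant and 597, 598 and 718 CPM with adult supernatant, against 14.7 to 21.3 CPM in media. Its groups did not overlap, and the value did not pass (0.55 ± 0.38, adjusted p = 0.308), although it did when only the 6 compared libraries were fitted (adjusted p = 0.0352).

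Enzymes of nitric oxide, tryptophan and prostaglandin metabolism were lower in part. In the list for nitric oxide, arginine and tryptophan, 6 of 16 were lower and 1 was higher (median -0.28). Beside Nos2, Gch1, which makes the cofactor of nitric oxide synthase, fell by 1.53 ± 0.23. Ido1, which degrades tryptophan, had 1.46, 1.70 and 1.33 CPM with neonatal supernatant and 12.0, 13.3 and 18.2 CPM with adult supernatant (-3.15 ± 0.31). Wars, the tryptophan transfer RNA synthetase, had 106, 106 and 95.0 CPM with neonatal supernatant, 576, 458 and 582 CPM with adult supernatant and 97.3 to 102 CPM in media (-2.39 ± 0.08, adjusted p = 1.43e-11). Its neonatal-supernatant values lay at the level of media. Of 13 prostaglandin genes 7 were lower and 1 was higher (median -0.28). Ptgs2, cyclooxygenase 2, had 507, 344 and 442 CPM with neonatal supernatant and 1500, 1335 and 1512 CPM with adult supernatant, against 187 to 365 CPM in media (-1.76 ± 0.21, adjusted p = 4.56e-06). Ptges, the prostaglandin E synthase, fell by 1.15 ± 0.17, and so did Hpgd, which degrades prostaglandin (1.67 ± 0.24).

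Of 13 checkpoint, costimulation and adhesion genes 8 were lower and 1 was higher (median -0.80). The costimulatory receptor Cd40 had 2.64, 2.36 and 3.36 CPM with neonatal supernatant and 36.6, 24.8 and 41.4 CPM with adult supernatant (-3.54 ± 0.41). The leukocyte adhesion molecule Icam1 had 117, 104 and 88.2 CPM with neonatal supernatant, 291, 239 and 311 CPM with adult supernatant and 116 to 122 CPM in media (-1.44 ± 0.11). Of 19 cell death genes 11 were lower and none was higher (median -0.42). The pore-forming proteins of pyroptosis and necroptosis, Gsdmd and Mlkl, fell by 1.64 ± 0.13 and 1.67 ± 0.16, and Bcl2l1, an inhibitor of apoptosis, fell by 0.64 ± 0.08.

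Matrix genes moved the other way. Of 21 collagen genes 16 were higher with neonatal supernatant, none was lower and the median was 1.16. Col1a1, the main chain of collagen I, had 12724, 12615 and 17165 CPM with neonatal supernatant against 6134, 6838 and 5856 CPM with adult supernatant and 18805 to 20332 CPM in media (1.16 ± 0.10, adjusted p = 1.49e-07). Col3a1, collagen III, had 5049, 7421 and 6753 CPM with neonatal supernatant and 2736, 3061 and 2614 CPM with adult supernatant (1.18 ± 0.15). The collagen VI chains Col6a1, Col6a2 and Col6a3, which form the sheath around tendon cells, rose by 2.80 ± 0.11, 2.44 ± 0.11 and 2.58 ± 0.16. Col6a1 had 1446, 1644 and 1852 CPM with neonatal supernatant, 220, 232 and 254 CPM with adult supernatant and 1022 to 1179 CPM in media. Col14a1, which binds fibrils to other matrix, had 76.6, 106 and 157 CPM with neonatal supernatant and 5.21, 8.36 and 8.94 CPM with adult supernatant (3.87 ± 0.25, adjusted p = 6.79e-09). Its media level was higher, at 196 to 277 CPM.

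**Figure D3:**
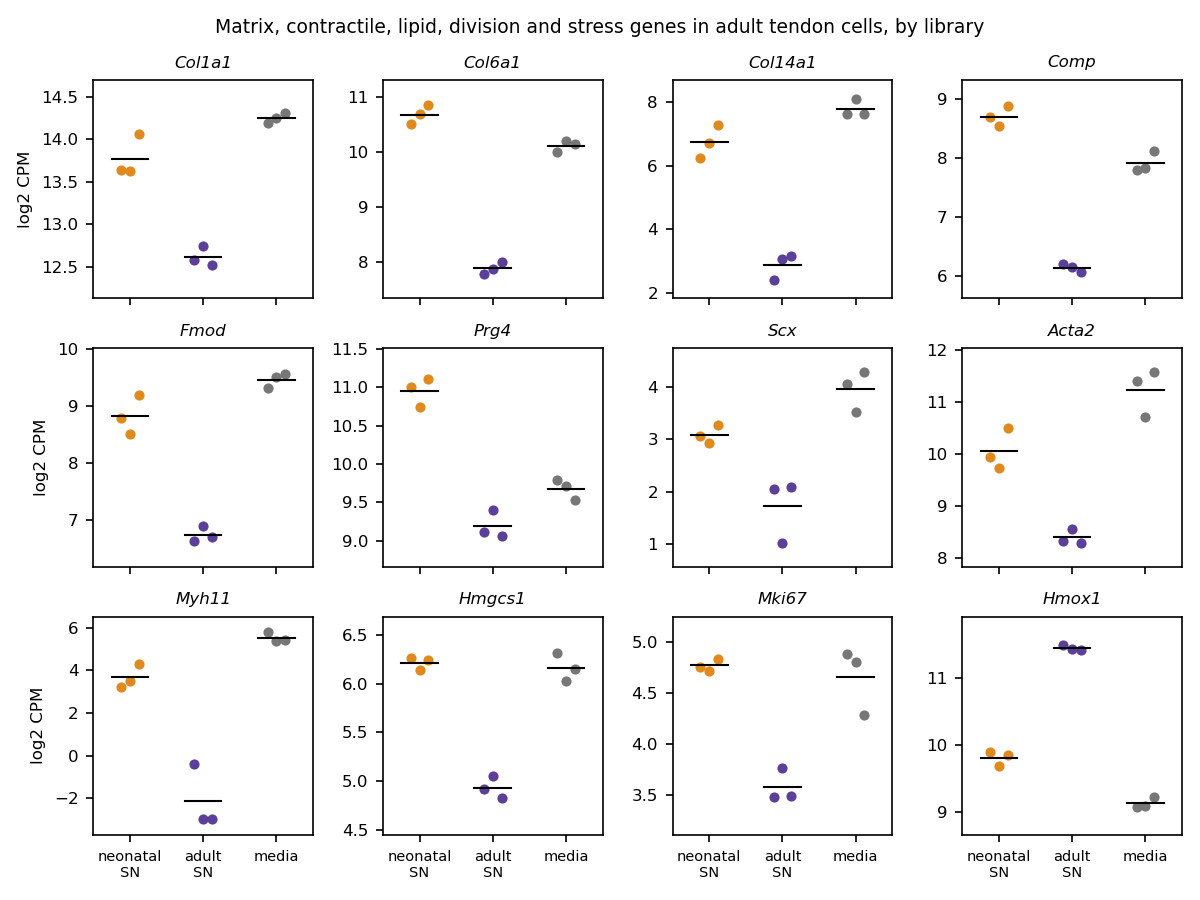
Each panel shows 1 gene in the 9 libraries of adult tendon cells, in log2 CPM, with neonatal supernatant at left, adult supernatant in the middle and media at right; the line is the group mean. In every panel but that of Hmox1 the 3 neonatal-supernatant libraries lie above the 3 adult-supernatant libraries, and Myh11 is at the lowest deposited value in 2 adult-supernatant libraries.

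Of 23 tendon lineage and matrix genes 13 were higher and 2 were lower (median 0.83). Scx, the transcription factor scleraxis, had 8.20, 7.48 and 9.49 CPM with neonatal supernatant, 3.99, 1.91 and 4.12 CPM with adult supernatant and 11.4 to 19.3 CPM in media (1.36 ± 0.22, adjusted p = 0.000167). Mkx, the transcription factor Mohawk, had 11.7, 16.3 and 15.3 CPM with neonatal supernatant and 5.57, 7.92 and 3.89 CPM with adult supernatant, against 4.16 to 8.21 CPM in media (1.34 ± 0.27, adjusted p = 0.00107). Tnmd, tenomodulin, had 1.96, 4.44 and 2.54 CPM with neonatal supernatant and 1.93, 1.31 and 1.39 CPM with adult supernatant. It passed narrowly (0.83 ± 0.30, adjusted p = 0.0461), and no longer did without adult-supernatant library 2 (0.128) or 3 (0.105) or neonatal-supernatant library 2 (0.229) or 3 (0.0692). The Tnmd call was also lost with the replicate number as a block (0.0584), with TMM-like scaling (0.0519), with a pseudocount of 1 CPM (0.0718) and in the 6 compared libraries alone (0.17).

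Comp, a cartilage and tendon protein that organises collagen, had 412, 370 and 470 CPM with neonatal supernatant, 73.9, 70.7 and 66.6 CPM with adult supernatant and 223 to 278 CPM in media (2.56 ± 0.11, adjusted p = 1.29e-10). Fmod, the proteoglycan fibromodulin, and Thbs4, a thrombospondin of tendon, rose by 2.09 ± 0.13 and 2.94 ± 0.28. Prg4, the lubricant lubricin, had 2057, 1717 and 2205 CPM with neonatal supernatant and 555, 673 and 534 CPM with adult supernatant, against 736 to 882 CPM in media (1.76 ± 0.12). Dcn, the proteoglycan decorin, had 162, 176 and 174 CPM with neonatal supernatant and 317, 273 and 285 CPM with adult supernatant and did not pass (-0.77 ± 0.32, adjusted p = 0.0798), although it did when only the 6 compared libraries were fitted (adjusted p = 0.000302). The 2 lower members were Tnc, a matrix glycoprotein induced in injury, and Egr1, an early-response transcription factor. Tnc had 1030, 829 and 863 CPM with neonatal supernatant and 5804, 3770 and 4603 CPM with adult supernatant, against 454 to 664 CPM in media (-2.36 ± 0.16, adjusted p = 1.25e-08).

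Of 16 elastic fibre genes 12 were higher, none was lower and the median was 0.81. Fbn1, fibrillin, had 2836, 2810 and 3030 CPM with neonatal supernatant and 1206, 1378 and 1161 CPM with adult supernatant (1.22 ± 0.12). Eln, elastin, was low with either supernatant, at 0.906, 2.03 and 1.54 CPM with neonatal supernatant and 0.535, 0 and 0.399 CPM with adult supernatant, against 72.2 to 94.2 CPM in media. Its rise of 2.13 ± 0.58 was lost without adult-supernatant library 2, the library at 0 (1.39, adjusted p = 0.0571), and when only the 6 compared libraries were fitted (adjusted p = 0.0716). Among 19 genes for collagen crosslinking and processing 9 were higher and 3 were lower (median 0.14). Serpinh1, the collagen chaperone, and Pcolce2, an enhancer of procollagen cleavage, rose by 0.66 ± 0.05 and 1.65 ± 0.16, while the crosslinking enzymes Tgm2 and Plod2 fell by 0.95 ± 0.14 and 0.58 ± 0.10.

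Matrix-degrading enzymes and their inhibitors held members in both directions. Of 17 matrix metalloproteinases and their TIMP inhibitors 8 were higher and 2 were lower (median 0.31). Mmp2, a gelatinase, had 657, 789 and 836 CPM with neonatal supernatant, 219, 246 and 230 CPM with adult supernatant and 691 to 885 CPM in media (1.71 ± 0.11). Mmp14, its membrane-bound activator, rose by 0.89 ± 0.07, and Mmp11 rose by 2.28 ± 0.12. Mmp12, an elastase, had 86.3, 80.5 and 78.8 CPM with neonatal supernatant, 11.6, 13.7 and 20.0 CPM with adult supernatant and 8.70 to 9.62 CPM in media (2.47 ± 0.46, adjusted p = 0.000497).

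The inflammation-linked enzymes Mmp3 and Mmp13 did not pass. The stromelysin Mmp3 had 65.9, 54.3 and 83.4 CPM with neonatal supernatant and 120, 146 and 127 CPM with adult supernatant, against 4.79 to 7.24 CPM in media (-0.97 ± 0.43, adjusted p = 0.104). The collagenase Mmp13 had 30.3, 28.8 and 32.0 CPM with neonatal supernatant and 56.7, 39.5 and 55.2 CPM with adult supernatant (-0.71 ± 0.45, adjusted p = 0.259). Neither overlapped between the groups, and both passed when only the 6 compared libraries were fitted (adjusted p = 0.00346 and 0.0105), Mmp3 also with a pseudocount of 1 CPM (0.0318). Timp3 was higher (1.47 ± 0.14) and Timp1 lower (-0.82 ± 0.12). Of 17 ADAM and ADAMTS proteases 9 were higher and 4 were lower (median 0.85). Adamts12 had 106, 109 and 139 CPM with neonatal supernatant and 18.3, 26.6 and 23.7 CPM with adult supernatant (2.37 ± 0.14), and the aggrecanase Adamts5 rose by 0.97 ± 0.11. Adamts9 was lower, at 12.1, 6.15 and 12.5 CPM with neonatal supernatant against 45.8, 41.5 and 48.9 CPM with adult supernatant (-2.20 ± 0.25).

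Smooth muscle contractile genes were higher. Of 16 measured 12 passed as higher, none as lower, and the median was 1.29. Acta2, smooth muscle actin and a mark of myofibroblasts, had 984, 851 and 1449 CPM with neonatal supernatant, 322, 379 and 315 CPM with adult supernatant and 1683 to 3059 CPM in media (1.66 ± 0.20, adjusted p = 5.32e-06). Cnn1, calponin, had 14.8, 14.8 and 26.0 CPM with neonatal supernatant and 2.77, 3.45 and 2.78 CPM with adult supernatant (2.53 ± 0.22), and Actg2 and Mylk, an actin and the myosin kinase of smooth muscle, rose by 2.52 ± 0.21 and 2.29 ± 0.20. Myh11, smooth muscle myosin, had 9.11, 11.2 and 19.7 CPM with neonatal supernatant, 0.641, 0 and 0 CPM with adult supernatant and 41.7 to 55.3 CPM in media. Its rise of 5.78 ± 0.96 was the largest among called, non-overlapping genes of at least 5 CPM, predicted and clone names left out. Its size depends on the libraries at 0, being 6.65 without adult-supernatant library 1. Markers of mural cells, which carry the same contractile genes, summed to 760, 760 and 896 CPM with neonatal supernatant, 309, 359 and 340 CPM with adult supernatant and 1221 to 1269 CPM in media, and 3 of 7 were higher. Among them Cspg4, the pericyte proteoglycan NG2, had 105, 95.2 and 114 CPM with neonatal supernatant and 9.47, 25.9 and 17.8 CPM with adult supernatant (2.67 ± 0.26), and Pdgfrb, a receptor that fibroblasts also carry, rose by 1.33 ± 0.10. Their part in the contractile result was not tested. The CArG box, the binding motif of serum response factor, was found in the 250 upstream bases of 3 of 12 contractile members with an entry (25.0%), against 1.40% of all promoters. The 3 were Cnn2, Myl9 and Ldb3, none of them among the contractile genes named above.

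Growth factor pathways of fibroblasts held both directions. Of 26 TGF-beta and BMP genes 7 were higher and 4 were lower (median 0.13). The ligands Tgfb2 and Tgfb3 rose by 2.02 ± 0.26 and 1.32 ± 0.17. Tgfb3 averaged 108 CPM with neonatal supernatant, below the 305 CPM in media. Tgfbi, a matrix protein named for its induction by TGF-beta, had 31.9, 35.2 and 50.7 CPM with neonatal supernatant, 4.55, 3.54 and 3.58 CPM with adult supernatant and 8.52 to 11.4 CPM in media (3.27 ± 0.25, adjusted p = 4.67e-08). The secreted BMP inhibitors Grem1 and Chrd were lower, Grem1 with 1395, 978 and 845 CPM with neonatal supernatant and 3118, 2682 and 3107 CPM with adult supernatant (-1.50 ± 0.15). Of 28 Wnt genes 11 were higher and 7 were lower (median 0.39). The receptor Lgr4 and the inhibitor Dkk2 rose by 1.83 ± 0.14 and 1.84 ± 0.14. Lgr4 and Dkk2 averaged 133 and 87 CPM with neonatal supernatant and 162 and 228 CPM in media. Rspo2, a ligand of LGR receptors that amplifies Wnt signals, had 2.72, 1.30 and 3.00 CPM with neonatal supernatant and 0.322, 0 and 0 CPM with adult supernatant (3.59 ± 0.69, and 4.20 without adult-supernatant library 1). The inhibitor Sfrp4 stood at 1.46, 0.599 and 2.06 CPM with neonatal supernatant and 0, 0 and 0.363 CPM with adult supernatant (2.77 ± 0.61, and 3.42 without adult-supernatant library 3).

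Of 13 genes of the insulin-like growth factor system 4 were higher and 3 were lower (median 0.28). Pappa, the protease that frees the factor from its binding proteins, had 80.4, 92.7 and 132 CPM with neonatal supernatant and 10.1, 12.9 and 10.7 CPM with adult supernatant (3.14 ± 0.17, adjusted p = 1.34e-09). In media Pappa stood higher, at 219 to 255 CPM. Its inhibitors Stc1 and Stc2 were lower. Stc1 had 17.6, 10.5 and 12.3 CPM with neonatal supernatant and 144, 121 and 138 CPM with adult supernatant, against 1.11 to 1.95 CPM in media (-3.33 ± 0.30), and Stc2 fell by 1.82 ± 0.16. In the list of CCN and YAP-responsive genes 5 of 14 were higher and 4 were lower (median -0.06). The CCN members Nov, Wisp1 and Wisp2 rose by 2.36 ± 0.20, 2.04 ± 0.13 and 1.20 ± 0.08, and the YAP kinase Lats2 fell by 0.78 ± 0.11. Nov, Wisp1 and Wisp2 averaged 67.2, 111 and 855 CPM with neonatal supernatant, below the 370, 300 and 1024 CPM in media.

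Cell-cycle genes were higher with neonatal supernatant in 17 of 32 measured, none was lower, and the median was 0.58. Mki67, the proliferation marker, had 27.0, 26.2 and 28.5 CPM with neonatal supernatant, 11.0, 13.5 and 11.1 CPM with adult supernatant and 19.4 to 29.4 CPM in media (1.20 ± 0.18, adjusted p = 8.5e-05). Ccna2, a cyclin of DNA replication, and Cdc20, which opens the exit from mitosis, rose by 1.28 ± 0.19 and 1.29 ± 0.19. Mcm6, part of the replication helicase, had 25.4, 17.8 and 20.0 CPM with neonatal supernatant and 10.5, 13.2 and 10.5 CPM with adult supernatant (0.87 ± 0.13). Of 20 p53 targets and inhibitors of cyclin-dependent kinases 4 were higher and 4 were lower (median 0.12). Mdm2, the ligase that degrades p53, had 421, 411 and 363 CPM with neonatal supernatant and 782, 688 and 819 CPM with adult supernatant (-0.94 ± 0.08).

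Glycolysis and hypoxia genes were lower in 17 of 24 measured, none was higher, and the median was -0.57. Slc2a1, the main glucose carrier of fibroblasts, had 321, 317 and 307 CPM with neonatal supernatant, 808, 722 and 702 CPM with adult supernatant and 87.9 to 114 CPM in media (-1.24 ± 0.15, adjusted p = 6.06e-06). The hexokinases Hk1 and Hk2 fell by 0.90 ± 0.08 and 0.83 ± 0.08, and Egln3, an oxygen-sensing hydroxylase that hypoxia induces, fell by 2.62 ± 0.23. Of 22 respiratory chain genes 5 were higher and 3 were lower with a median of 0.09, and 3 to 7 passed with 1 library left out.

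Cholesterol synthesis and uptake genes were higher in 18 of 24 measured, none was lower, and the median was 0.88. Insig1, a sterol sensor of the SREBP pathway, had 81.5, 81.2 and 71.9 CPM with neonatal supernatant, 27.3, 34.6 and 29.2 CPM with adult supernatant and 59.7 to 76.2 CPM in media (1.36 ± 0.10, adjusted p = 3.44e-08). Hmgcs1, an early enzyme of the pathway, had 76.6, 70.4 and 75.7 CPM with neonatal supernatant and 30.1, 33.0 and 28.2 CPM with adult supernatant, against 65.2 to 79.4 CPM in media (1.28 ± 0.09, adjusted p = 1.25e-08). Cyp51, a later enzyme of the pathway, rose by 1.27 ± 0.12. The sterol element letters TCACNCCAC, searched on both strands, were in the 250 upstream bases of 1 of 16 members with an entry (6.25%), Hmgcs1, against 1.04% of all promoters. Its window shows the match in capitals, 129 to 137 bases upstream of the start, on chr13:119690188-119690247 of GRCm38.p6, plus strand.
Hmgcs1: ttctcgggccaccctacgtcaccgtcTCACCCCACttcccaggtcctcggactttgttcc

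Genes of oxidative stress and of the transcription factor NRF2 were lower in 14 of 20 measured and higher in 1, with a median of -0.67. Hmox1, which degrades heme, had 954, 824 and 925 CPM with neonatal supernatant, 2904, 2787 and 2747 CPM with adult supernatant and 540 to 597 CPM in media (-1.65 ± 0.07, adjusted p = 1.36e-10). Slc7a11, the cystine carrier for glutathione synthesis, had 18.1, 17.5 and 11.9 CPM with neonatal supernatant and 75.0, 86.5 and 71.2 CPM with adult supernatant (-2.30 ± 0.15). The peroxidase Prdx1 and the NRF2 target Nqo1 fell by 1.64 ± 0.09 and 1.66 ± 0.13. The exception was Gpx1, a glutathione peroxidase, which rose, at 197, 203 and 201 CPM with neonatal supernatant against 108, 107 and 129 CPM with adult supernatant (0.81 ± 0.09). The antioxidant element letters TGACNNNGC were found in 6 of 16 members with an entry (37.5%), against 10.1% of all promoters and 11.8% of those of measured genes. The 6 were Gclm, Sod1, Prdx1, G6pdx, Nfe2l2 and Mt2, of which only Prdx1 is named above. Of 20 genes of the unfolded protein response and amino-acid stress 9 were higher and 3 were lower (median 0.21). The chaperone Hspa5 had 1756, 1786 and 1721 CPM with neonatal supernatant and 1099, 1320 and 1119 CPM with adult supernatant (0.58 ± 0.08), and Herpud1 rose by 1.02 ± 0.09, while the stress factor Atf3 fell by 1.79 ± 0.32.

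Several of the largest differences lay outside the lists. Clic5, a chloride channel protein, and Upp1, a uridine phosphorylase, fell by 5.18 ± 0.29 and 5.10 ± 0.45. Rarres2, the chemoattractant chemerin, had 0.245, 0.604 and 0.508 CPM with neonatal supernatant and 83.6, 53.5 and 70.2 CPM with adult supernatant (-6.93 ± 0.52). Dak, a sugar kinase gene, was under 3 reads in all neonatal-supernatant libraries and had 6.12, 3.81 and 5.35 CPM with adult supernatant, at least 24.1-fold lower with neonatal supernatant at a floor of 3 reads per library. Its media values of 3.94 to 4.97 CPM were close to those with adult supernatant. Fam26f, an interferon-induced membrane protein gene, fell by 4.79 ± 0.42. Among the rises, Cygb, the globin of fibroblasts, had 201, 227 and 223 CPM with neonatal supernatant, 27.1, 33.1 and 22.2 CPM with adult supernatant and 141 to 151 CPM in media (2.99 ± 0.13, adjusted p = 9.48e-11). Pi16, a marker of fibroblast precursors, and Sema3d, a guidance factor, rose by 3.12 ± 0.37 and 3.17 ± 0.43, where Sema3d gave 2.55 without adult-supernatant library 1. Pi16 and Sema3d averaged 6.26 and 15.1 CPM with neonatal supernatant, below the 12.4 and 54.7 CPM in media. Gprin3 had 31.0, 23.9 and 30.3 CPM with neonatal supernatant and 1.17, 3.54 and 0.967 CPM with adult supernatant, against 8.24 to 12.5 CPM in media (4.03 ± 0.37). The choline carrier Slc5a7 had 65.8, 91.7 and 93.2 CPM with neonatal supernatant and 6.11, 9.08 and 6.55 CPM with adult supernatant (3.51 ± 0.19), and the proline carrier Slc6a7, the sulfatase Arsi and Fam13c rose by 3.62 ± 0.40, 3.31 ± 0.24 and 3.14 ± 0.29. Media means of Slc5a7, Slc6a7, Arsi and Fam13c were 147, 12.4, 98.4 and 17.1 CPM, above 83.6, 6.3, 43.3 and 12.8 CPM with neonatal supernatant. A further 2 of the largest rises rest on uneven adult-supernatant libraries. Tubgcp2, of the gamma-tubulin complex, had 11.2, 12.4 and 11.5 CPM with neonatal supernatant and 4.10, 1.95 and 0.147 CPM with adult supernatant (3.14 ± 0.66, against 3.97 without adult-supernatant library 1 and 2.00 without library 3). Pck2, a mitochondrial enzyme of glucose synthesis, had 16.4, 18.7 and 9.71 CPM with neonatal supernatant and 9.43, 0 and 4.89 CPM with adult supernatant (2.99 ± 1.00, adjusted p = 0.0335), and without adult-supernatant library 2 it no longer passed (1.07, adjusted p = 0.0528). Nor did Pck2 pass without neonatal-supernatant library 1, 2 or 3 (adjusted p = 0.0782, 0.0906 and 0.0505), without trend (0.0604) or in the 6 compared libraries alone (0.188).

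The labelled cell type was checked against its markers. Tendon fibroblast markers summed to 25885, 28508 and 34357 CPM with neonatal supernatant, 12846, 14345 and 12324 CPM with adult supernatant and 32865 to 36131 CPM in media. The set was Scx, Mkx, Tnmd, Col1a1, Col1a2, Col3a1, Fmod, Dcn, Lum and Pdgfra. Col1a1 and Col3a1 made up most of the sum, while Scx, Mkx and Tnmd added little at the levels given above. The sum is thus mainly a measure of collagen and does not by itself establish tendon identity. Of 17 T cell markers 8 were measured and none passed; Cd3e, Cd3g, Cd2, Cd5, Trac, Ifng, Il17a, Il13 and Gzmb are not among the tested genes. Cd4 had 1.86, 2.29 and 1.15 CPM with neonatal supernatant and 3.74, 8.66 and 2.79 CPM with adult supernatant (adjusted p = 0.0949), and passed as lower with a pseudocount of 1 CPM (0.0132) and after quantile normalization (0.0326). Il4 did not pass (0.86, adjusted p = 0.125), but did as higher after quantile normalization (1.33, adjusted p = 0.0283). Macrophage and leukocyte markers summed to 104, 137 and 123 CPM with neonatal supernatant and 83.4, 94.0 and 90.6 CPM with adult supernatant. Of 13 measured, 2 were higher, Mrc1 (1.58 ± 0.29) and Lyz2 (0.91 ± 0.20), where 15.1% of all genes were higher. The other 11 did not pass. The list median was 0.07, and -0.15 with the filter at 5 CPM. Endothelial markers summed to 221 to 228 CPM with neonatal supernatant and 262 to 270 CPM with adult supernatant, with 2 of 11 higher and 1 lower. Skeletal muscle, Schwann cell and keratinocyte markers summed to at most 42.4 CPM in any of the 6 libraries. Leaving out adult-supernatant library 2, the library with the highest T cell and odorant sums, 3618 genes passed, against 3273 to 3880 over all fits without 1 library. Adult-supernatant libraries 1 and 3 still had odorant sums of 364 and 274 CPM. The count therefore cannot show what part these transcripts have in the results, which was not tested.

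Neonatal and adult supernatant were also applied to neonatal tendon cells, in libraries that the comparison above does not use. There 4659 genes (32.4%) passed, 1969 (13.7%) higher and 2690 (18.7%) lower with neonatal supernatant; TMM scaling gave 2628 higher and 2272 lower, and quantile normalization 3004 higher and 1889 lower, and the median over all genes there was -0.05 as deposited, 0.03 with TMM and 0.09 with quantile normalization. Of the 1939 genes lower in adult cells, 1347 (69.5%) were also called lower in neonatal cells and 5 were called higher. Of the 2171 genes higher in adult cells, 1273 (58.6%) were also called higher and 17 were called lower. These shared genes are 50.1% of the lower and 64.7% of the higher calls of neonatal cells. Over all 14391 genes the fold changes in adult and in neonatal cells had a Pearson correlation of 0.73 and a Spearman correlation of 0.68, a description across genes, which are not independent replicates. Whether cells of both ages received the same supernatant preparations is not given. A difference between single preparations could therefore appear in both.

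**Figure D4:**
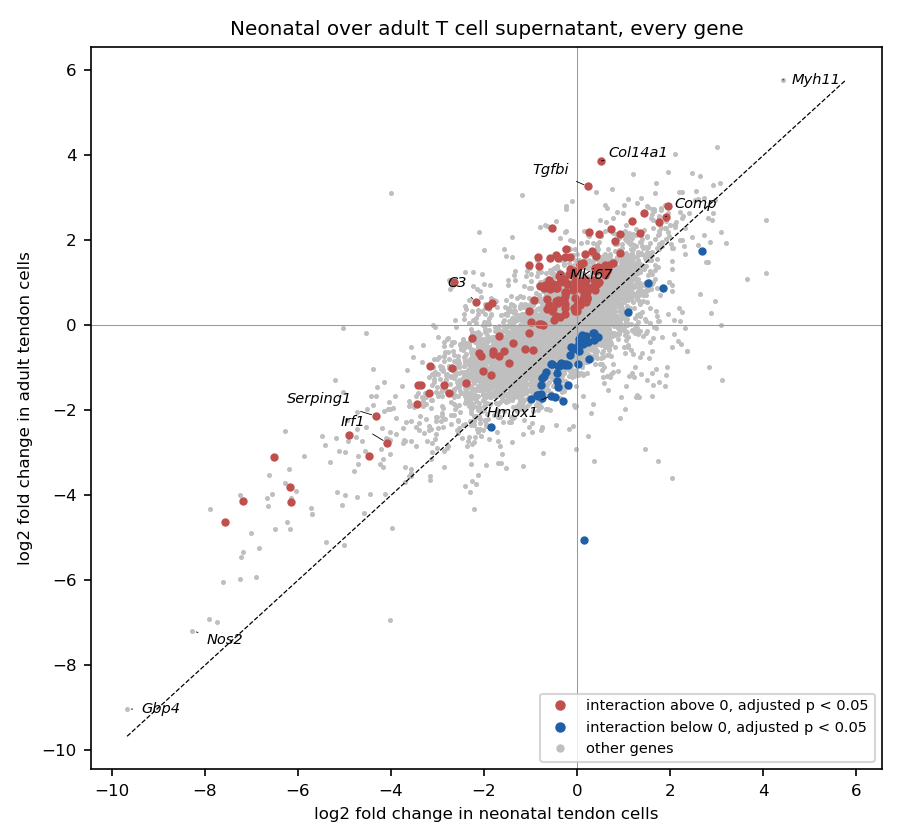
Each point is a gene, placed by its log2 fold change, neonatal over adult supernatant, in neonatal tendon cells (x axis) and in adult tendon cells (y axis), and the dashed line marks equal values. Red and blue points passed the interaction test above and below 0; red points lie above the line, among them Col14a1, Tgfbi and C3, and blue points below it, among them Hmox1.

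The interaction, the fold change in adult cells minus that in neonatal cells, passed for 221 genes (1.54%), 167 above 0 (1.16%) and 54 below 0 (0.375%). In adult cells the count was 120, 333 and 147 without adult-supernatant library 1, 2 and 3, and 127 without neonatal-supernatant library 2; in neonatal cells it was 121 and 134 without adult-supernatant library 1 and 3, and 134 without neonatal-supernatant library 1. TMM scaling gave 117 above and 75 below 0, and quantile normalization 158 and 71. Of the interferon-gamma list 5 of 24 passed above 0 (1 to 9 with 1 library left out), and its median was -3.46 in adult cells and -6.17 in neonatal cells. For Irf1 the fold change was -2.76 in adult and -4.09 in neonatal cells (interaction 1.33, adjusted p = 0.0345), a call lost without any 1 of 9 of the 12 libraries (adjusted p up to 0.098). Of 18 complement and acute-phase genes 8 passed above 0 (6 to 10 with 1 library left out). C1s1 fell by 1.40 in adult cells and 3.36 in neonatal cells (interaction 1.96, adjusted p = 0.000628), and C3, which did not pass in adult cells (0.55), stood at -2.18 in neonatal cells (interaction 2.72, adjusted p = 0.0141).

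Cell-cycle and cholesterol genes also differed by cell age. In the cell-cycle list 8 of 32 passed above 0 (6 to 11 with 1 library left out), and the median was 0.58 in adult and -0.29 in neonatal cells. Mki67 was 1.20 in adult cells and -0.36 in neonatal cells, where it did not pass (interaction 1.56, adjusted p = 0.00508). Mcm6 rose in adult cells and fell by 0.46 in neonatal cells (interaction 1.33, adjusted p = 0.00125). Of 24 cholesterol genes 8 passed above 0 (4 to 11 with 1 library left out), with a median of 0.88 in adult and 0.28 in neonatal cells. Of 20 oxidative stress genes 5 passed below 0 (3 to 5 with 1 library left out). Hmox1 fell by 1.65 in adult cells and 0.55 in neonatal cells (interaction -1.09, adjusted p = 0.000118).

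Of 21 collagen genes 4 passed the interaction test above 0 and none below (3 to 5 called with 1 library left out), and of 23 tendon genes 2 passed above and 1 below 0 (2 to 4). Of 16 elastic fibre genes 1 passed above 0 and none below (0 to 2 with 1 library left out). Col14a1 was 3.87 in adult cells and 0.52 in neonatal cells (interaction 3.34, adjusted p = 0.000254), and Tgfbi 3.27 and 0.23 (interaction 3.05, adjusted p = 0.000429). Gas6, a ligand of the TAM receptors, rose in cells of both ages, by 2.17 in adult and 1.35 in neonatal cells (interaction 0.82, adjusted p = 0.000477). Prg4 rose less in adult than in neonatal cells, by 1.76 and 2.68 (interaction -0.91, adjusted p = 0.0124). Nid1, a basement membrane protein, fell by 0.80 in adult cells and was at 0.25 in neonatal cells (interaction -1.05, adjusted p = 0.000355). No member of the contractile list passed the interaction test, and its medians were 1.29 in adult and 1.11 in neonatal cells.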

How the data were processed

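The authors deposited log2 CPM per gene for 18 libraries. Per the submitters' processing notes, kallisto (version not given in the sources used here), GRCm39 and limma 3.56.2 were used, and per the labels' protocols polyA RNA was prepared with NEBNext Ultra II and sequenced as paired reads. In the deposited values every gene reaches 1 CPM in at least 3 libraries, and the lowest value is an offset of 0.1269 CPM, taken off before CPM are printed. It was read as 2 reads over a mean of 15.77 M, which gives each library's depth and its floor of 3 reads; floors cover counting error only. Names matched RefSeq for 14179 of 14391 genes; 21 were altered to dates by a spreadsheet and were tested but not named.

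Differences were tested with limma 3.58.1 in R 4.3.3 (6 group means over all 18 libraries, eBayes with trend, two-sided, Benjamini-Hochberg adjustment over all genes, adjusted p under 0.05), with 12 residual degrees of freedom to which eBayes added 4.6, and the code was checked on simulated data. Genes were named if they stood among the top 15 rises or falls (called, mean of 5 CPM or more in the higher group, libraries not overlapping), if they had one of a list's lowest p values or were called against its median, if they were in a fixed set, or if they had one of the 6 lowest interaction p values of a direction. The top rises and falls and the interaction picks were limited to genes with a RefSeq symbol that is not a predicted or clone name. Gbp2, Igtp, Socs1, Ifngr1, Ifngr2, Il17ra, Stat6, Psmb8, Nlrc5, Mmp12, Prg4, Thbs4, Dcn, Rspo2, Sfrp4, Il13ra2, Saa3, Nqo1, Tgfb2 and Cxcl5 were added after their values were seen. Some genes that these rules pick are not reported here. The comparison and the gene lists were chosen with earlier results of these data known. Alternatives were a TMM-like scaling, quantile normalization, a pseudocount of 1 CPM, genes of at least 5 CPM in 3 libraries, no trend, a replicate block, the 6 compared libraries alone, a limit of 2-fold, and the fit without each library in turn. Promoter sequences are RefSeq's for GRCm38.p6. Tables and plots were made in Python 3.11.15 (pandas 2.3.3 with numpy 2.4.6; matplotlib 3.10.9).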

Additional observations from a re-analysis of the deposited data

Results flagged for a closer look

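Among the named genes, 39 differed between adult and neonatal tendon cells in their response to neonatal against adult supernatant by the interaction test (limma, adjusted p under 0.05), 28 above 0 and 11 below 0. Each value below is the log2 fold change in adult cells minus that in neonatal cells. The fit of the compared libraries alone and the 2-fold limit were not applied to the interaction. Of the 39, 27 passed under every other alternative and without any single library. Above 0 these were the collagen gene Col14a1 (3.34), the matrix gene Tgfbi (3.05), the complement genes C3 (2.72), Serping1 (2.20) and C1s1 (1.96), the protease inhibitor Serpina3f (2.36), the chemokine Ccl8 (2.01), the proteases Mmp11 (1.54) and Mmp2 (0.79), and the collagen VI chain Col6a1 (0.84). The cell-cycle genes Mki67 (1.56), Ccna2 (1.38), Cdc20 (1.34) and Mcm6 (1.33), the cholesterol genes Insig1 (0.83) and Hmgcs1 (0.70), Slc44a2 (1.03) and Gas6 (0.82) were also above 0. Below 0 were Dak (-5.20), whose size depends on libraries under 3 reads, Hmox1 (-1.09), Nid1 (-1.05), Prg4 (-0.91), Prdx1 (-0.78), Mdm2 (-0.68), Abcc1 (-0.67), Slc48a1 (-0.63) and Esd (-0.57).

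The other 12 calls were lost on leaving out at least 1 of the 12 libraries. The adjusted p reached 0.0546 for C2 (1.05, lost without 2 libraries), 0.0716 for S100b (1.48, lost without 4) and 0.064 for Adam12 (0.70, lost without 5). It reached 0.0913 for Wars (-0.55) and 0.111 for Cyp51 (0.70), each lost without 8. Lost without 9 were Irf1 (1.33), Comp (0.66), Col6a2 (0.70), Fbln1 (0.92), Hsd17b7 (0.57) and Nqo1 (-0.83), with an adjusted p of up to 0.098, 0.113, 0.112, 0.103, 0.103 and 0.101. Herpud1 (0.55) was lost without 10, with an adjusted p of up to 0.123. No group had more than 3 libraries, so single libraries far from their group were not tested for.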

How the results depend on the processing

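For neonatal against adult supernatant in adult cells, against 4110 genes, 4021 passed with a TMM-like scaling, 4517 after quantile normalization (2676 higher, 1841 lower), 4316 with a pseudocount of 1 CPM, 3957 with the filter at 5 CPM, 3935 without trend, 3264 in a fit of the 6 compared libraries alone, 3273 to 3880 without 1 library, and 1167 at 2-fold or more. In neonatal cells 3336 to 4167 passed without 1 library. The interaction gave 192 with the scaling, 229 after quantile normalization, 150 without trend and 120 to 333 without 1 library. No pairing by replicate number was visible: deviations of same-numbered libraries correlated at 0.013, 0.032 and 0.05 in adult cells and at 0.041, -0.083 and -0.06 in neonatal cells. With 3 libraries a group, this check cannot tell whether libraries were paired by culture or preparation. With the number as a replicate block 4032, 4590 and 213 genes passed in adult cells, neonatal cells and the interaction. Against media, 3876 genes passed for neonatal supernatant with the block and 3929 without it, and 7429 and 7490 for adult supernatant; leaving out 1 library gave 2995 to 3719 and 6808 to 7182. The split against media was 2321 higher and 1608 lower for neonatal supernatant, turned to 2011 and 2116 by the TMM-like scaling and to 1649 and 1900 by quantile normalization. For adult supernatant it was 4052 and 3438, turned to 3735 and 3936 by the scaling, to 3139 and 4395 by quantile normalization and to 2865 and 3189 by the filter. Over the named genes and list members, 8293 values under an alternative kept their direction and side of the threshold, 304 lost the threshold, 122 gained it and none of the called ones reversed. With 3 libraries a group and estimated counts, genes near 3 reads are limited by depth.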
